A study of Mus musculus with 6 samples.

Results

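Guanylate-binding proteins, encoded in the mouse by the Gbp genes, are large GTPases of the dynamin superfamily that cells make in response to interferons, above all interferon gamma. They bind and hydrolyse GTP, assemble on the vacuoles and surfaces of intracellular parasites and bacteria, and help to activate inflammasomes, which has been studied mostly in macrophages. Interferon gamma reaches these genes through its receptor, the kinases JAK1 and JAK2, and transcription factors that include IRF1. The promoter elements known for such genes are the gamma-activated site (GAS) and the interferon-stimulated response element (ISRE), the latter recognised by IRF factors.

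The Gbp genes were taken by symbol from a list of 10, Gbp2 to Gbp11, out of 31017 genes in the count table. A row was found for 9 of them, and all 9 passed the filter on low counts. The chromosome 3 group (Gbp2, Gbp3, Gbp5 and Gbp7) had 4 of 4 rows and the chromosome 5 group (Gbp4, Gbp6, Gbp8, Gbp9, Gbp10 and Gbp11) had 5 of 6. Gbp11, annotated as a polymorphic pseudogene, was not analysed here. The genes were chosen by symbol with the measured difference between KO and control of this family already known, so their levels and fold changes are given as a description, with no test.

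The study asked what loss of RTF1, a transcription elongation factor that works with the PAF1 complex and promotes ubiquitination of histone H2B, does to Th17 cells, the helper T cells that secrete interleukin 17. RNA was sequenced from 3 libraries labelled control with the genotype WT and 3 labelled KO, all from mouse Th17 cells differentiated in culture. The strain, age, allele, any Cre driver, the culture conditions and whether replicates came from separate animals are not given in the sources used here, so the p-values measure only the spread between these libraries. Total counts ran from 16489813 to 51271226 per library. Levels are given as CPM, counts relative to the library total after TMM scaling, and a gene was called when its edgeR adjusted p was under 0.05.

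As a check of the labels, Rtf1 held 94.0, 91.2 and 88.3 CPM in control replicates 1, 2 and 3 and 45.3, 30.4 and 26.2 CPM in KO replicates 1, 2 and 3, so that 37.2% of the mean control level remained. Markers of the labelled cell type were detected in both groups: 6 T cell genes summed to 1526 to 2192 CPM, and 5 Th17 genes to 1315 to 1985 CPM in control and 486 to 1114 CPM in KO. By edgeR, 2 of the T cell genes were called higher in KO and 2 lower. Of the Th17 genes 0 were called higher and 4 lower, so the Th17 markers were weaker in KO. The 5 markers of CD8 T cells and natural killer cells summed to 6.93 to 10.5 CPM in control and 6.49 to 11.8 CPM in KO. Most of this was Cd8b1 (4.91 to 9.91 CPM over the 6 libraries), Ncr1 and Klrb1c were at 0 counts in every library, and Eomes held 0.0608 to 0.165 CPM in control and 1.09 to 2.24 CPM in KO, the only one of the 5 that was called (higher, edgeR adjusted p = 0.000946). Summed B cell, erythroid and fibroblast markers stayed at or below 3.04 CPM in each library. Replicate 3 of each group held 11376 and 5147 counts of 4 Y-linked genes, against 1 to 3 in the others, and is left out in a separate comparison below.

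Myeloid markers are given here because macrophages express Gbp genes strongly. The 6 markers summed to 2.58 to 5.20 CPM in control and 16.9 to 28.5 CPM in KO. Cd68, a lysosomal membrane protein gene that held most of this sum, gave 1.80 to 4.42 CPM in control and 13.3 to 25.3 CPM in KO. The other 5 (Lyz2, Csf1r, Itgam, Cd14 and Adgre1) did not exceed 1.75 CPM in any library, and Itgam and Adgre1 did not exceed 0.134 CPM. Lyz2 held 0 to 0.0950 CPM in control and 0.294 to 1.75 CPM in KO. Csf1r held 0.206 to 0.451 CPM in control and 0.587 to 1.63 CPM in KO. The groups of Itgam, Cd14 and Adgre1 overlapped. Of the 6 markers, 2 were called higher and 0 lower. The 5 dendritic cell markers summed to 1.75 to 3.56 CPM in control and 7.97 to 10.3 CPM in KO, of which Xcr1 and Zbtb46 held the most. Clec9a and Siglech were at 0 counts in 5 of 6 libraries. The part of such cells in the Gbp values was not tested, and in bulk RNA a change in the number of cells and in the RNA per cell cannot be told apart.

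Every Gbp gene of the list with a row was higher in the KO libraries, and for 9 of 9 the lowest KO library lay above the highest control library. Such separation in this direction was found for 29.9% of the 14268 tested genes. All 9 were also called higher, where 23.2% of tested genes were (46.1% were called in either direction), and since the genes were chosen with this contrast known nothing is read from either count. Together the 9 genes held 143, 260 and 313 CPM in control replicates 1, 2 and 3 and 1034, 1091 and 1717 CPM in KO replicates 1, 2 and 3. The means were 239 ± 86.8 and 1281 ± 379 CPM (SD, n = 3). Log2 fold changes of single genes ran from 1.41 for Gbp5 to 5.42 for Gbp10 with a median of 3.24, against a median of 0.013 over all tested genes.

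**Figure D1:**
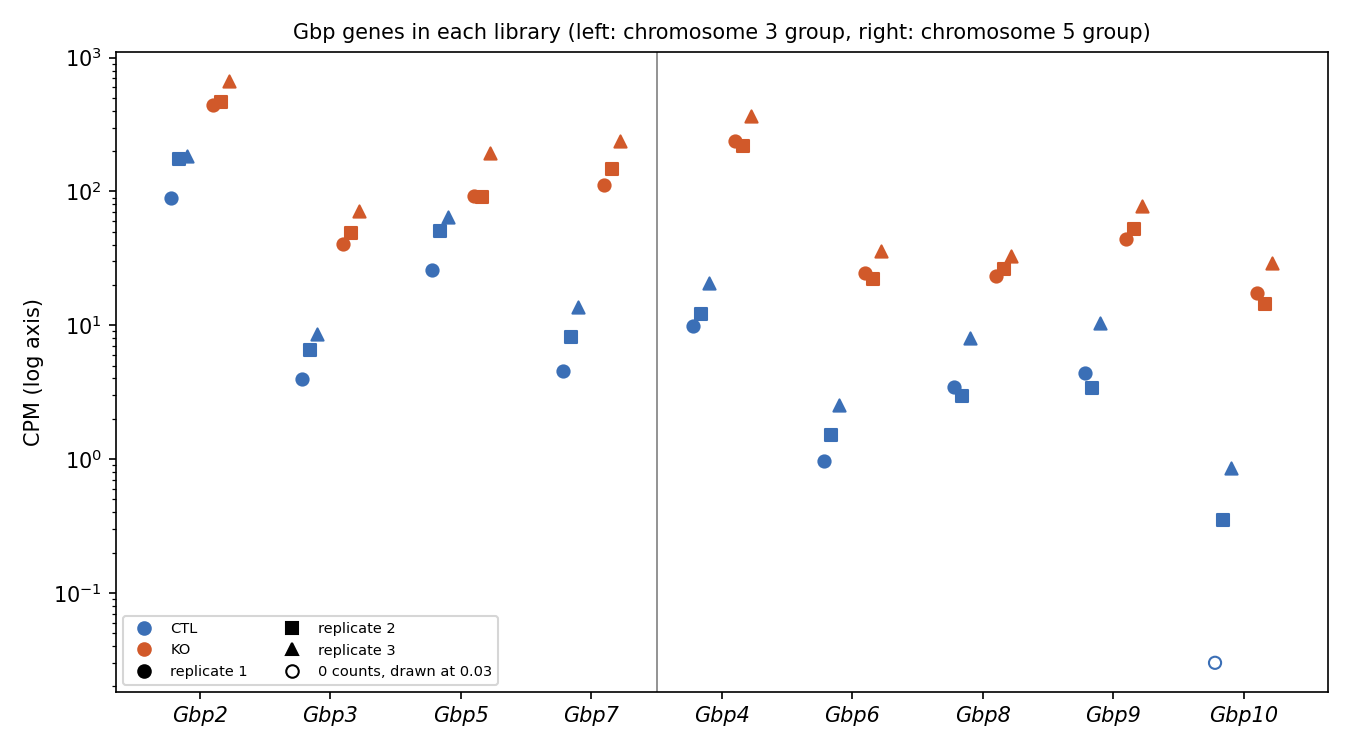
CPM of the 9 Gbp genes on a log axis, 1 point per library, with control libraries in blue, KO libraries in orange and replicates 1, 2 and 3 as circles, squares and triangles. The KO points of each gene lie above its control points, replicate 3 is the highest library of both groups for each gene, and the open circle marks Gbp10 in control replicate 1, which had 0 counts.

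The chromosome 3 group lies on the plus strand of chromosome 3 in the order Gbp5, Gbp7, Gbp3 and Gbp2, from base 142493978 to 142638008 of GRCm38, a span of 144 kb (GENCODE M21 annotation). Gbp2b, which encodes the mouse GBP1 protein and is not on the list, lies between Gbp3 and Gbp2. It was all but silent, with 0 to 10 counts per library, and its groups overlapped. Deletion of this cluster is known to leave mice susceptible to the parasite Toxoplasma gondii.

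Promoter sequence shows where interferon-type motifs lie in this group. RefSeq (GRCm38.p6) windows were at hand for its 4 genes, 5 windows in all because Gbp3 had 2 starts. The 250 bases before each start were searched on both strands for the ISRE core GAAANNGAAA and the GAS core TTCNNNGAA, which reads the same on both strands. An ISRE core was found in 4 of the 5 windows, 1 for each gene, and in 2.98% of all 32851 promoter windows of this length. A GAS core was found in the windows of Gbp5 and Gbp7 (2 of 5), and in 7.02% of all windows. The stretches below carry these matches, shown in capitals, on the plus strand from 5′ to 3′. The Gbp5 stretches are at chr3:142496684-142496727, chr3:142496739-142496808 and chr3:142496852-142496899, that of Gbp7 at chr3:142530200-142530322, that of Gbp3 at chr3:142559969-142560025 and that of Gbp2 at chr3:142620574-142620613.
Gbp5 far GAS core: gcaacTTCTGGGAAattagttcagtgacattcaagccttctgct
Gbp5 ISRE core: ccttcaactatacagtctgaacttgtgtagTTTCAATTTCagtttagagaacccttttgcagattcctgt
Gbp5 near GAS core: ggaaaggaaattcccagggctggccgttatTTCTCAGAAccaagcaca
Gbp7 with 2 GAS cores and then an ISRE core: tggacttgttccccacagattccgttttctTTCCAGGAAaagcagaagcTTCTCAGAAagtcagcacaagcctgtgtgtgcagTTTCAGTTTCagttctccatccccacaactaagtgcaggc
Gbp3 with 2 overlapping ISRE cores: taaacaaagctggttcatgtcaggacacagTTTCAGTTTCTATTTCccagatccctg
Gbp2 ISRE core: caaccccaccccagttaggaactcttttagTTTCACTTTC

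The ISRE core of all 4 genes thus reads in the same orientation. Its last base lies 44 bases before the RefSeq start in Gbp7, 30 in Gbp3, 50 in Gbp2 and 156 in Gbp5. In Gbp2 the match lies within the first exon of a GENCODE transcript that starts upstream of the RefSeq start. The GENCODE span of Gbp5 starts further upstream still, at base 142493978. All the Gbp5 matches, from base 142496689 to 142496890, thus lie inside that span, outside annotated exons. A match is a description of the letters and not evidence of binding.

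Gbp2, whose protein carries a C-terminal lipid anchor signal and coats parasite vacuoles, was the most abundant member. It held 90.0, 174 and 184 CPM in control replicates 1, 2 and 3 and 442, 470 and 674 CPM in KO replicates 1, 2 and 3. The lowest KO library stood 2.40 times above the highest control library. The log2 fold change was 1.82 (SE 0.278).

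Gbp5, known for promoting assembly of the NLRP3 inflammasome, held 26.1, 50.6 and 64.1 CPM in control and 92.4, 91.3 and 194 CPM in KO. Its groups were the closest of all members, with the lowest KO library 1.43 times above the highest control library. KO replicate 3 stood at 2.12 times the lowest KO library. The log2 fold change was 1.41 (SE 0.370), and it was 0.96 (SE 0.306) without KO replicate 3.

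Gbp7, which has been linked to the NADPH oxidase that kills engulfed bacteria, was low in control at 4.56, 8.19 and 13.7 CPM. In KO it held 113, 148 and 239 CPM, a log2 fold change of 4.20 (SE 0.414). Gbp3, its neighbour, held 3.95, 6.56 and 8.60 CPM in control and 40.6, 48.7 and 70.9 CPM in KO, a log2 fold change of 3.04 (SE 0.303). Thus the chromosome 3 group divides into Gbp2 and Gbp5, with the higher control levels and the smaller fold changes, and Gbp3 and Gbp7, with low control levels and larger ones. Per length, the level of Gbp7 was 0.671 to 0.925 times that of Gbp3 in the control libraries and 1.61 to 1.96 times in the KO libraries, 2 ranges that do not overlap.

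The chromosome 5 group lies on the minus strand of chromosome 5, from base 105014150 to 105346472 of GRCm38, a span of 332 kb. Its order along the chromosome is Gbp8, Gbp9, Gbp4, Gbp10, Gbp6 and Gbp11. Gbp4, Gbp8 and Gbp9 have annotated spans that overlap, and a combined transcript, Gm43302, runs through Gbp10 and Gbp6. Its genes also encode interferon-induced GTPases, whose single roles are less well known than those of Gbp2 and Gbp5.

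Gbp4 was the most abundant of this group. It held 9.91, 12.2 and 20.8 CPM in control replicates 1, 2 and 3 and 237, 219 and 365 CPM in KO replicates 1, 2 and 3. The lowest KO library stood 10.5 times above the highest control library. With a log2 fold change of 4.24 (SE 0.319), Gbp4 went from 6.10% ± 1.20 of all Gbp counts in control to 21.4% ± 1.47 in KO (SD, n = 3).

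Gbp6 held 0.973, 1.51 and 2.54 CPM in control and 24.8, 22.1 and 35.9 CPM in KO, a log2 fold change of 3.98 (SE 0.339). Gbp10 was nearly absent from control, with 0, 17 and 36 counts in replicates 1, 2 and 3, or 0, 0.351 and 0.855 CPM. In KO it held 457, 536 and 571 counts, or 17.4, 14.3 and 29.0 CPM. The 0 counts in control replicate 1 allow up to 3 counts there by counting error alone. The log2 fold change of Gbp10 was 5.42 (SE 0.610), and it was 5.02 when control replicate 1 was left out and 6.24 when control replicate 3 was.

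Gbp8 and Gbp9, at the low-coordinate end of the cluster, were lowest in control replicate 2 and highest in control replicate 3. Gbp8 held 3.47, 2.97 and 8.03 CPM in control and 23.3, 26.1 and 32.8 CPM in KO, a log2 fold change of 2.49 (SE 0.360). Gbp9 held 4.38, 3.38 and 10.3 CPM in control and 43.8, 52.2 and 77.9 CPM in KO, a log2 fold change of 3.24 (SE 0.416). Control replicate 3 bore on both, since without it the log2 fold changes were 3.04 for Gbp8 and 3.87 for Gbp9. The groups of both genes stayed apart, with the lowest KO library 2.90 and 4.24 times above the highest control library.

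Shared sequence limits how far some of these genes can be told apart. Of the 50-base stretches in the annotated transcripts of Gbp10, 84.1% occur in transcripts of another gene, 73.3% in Gbp6. For Gbp6 the share was 70.7%, with 65.0% in Gm43302 and 45.9% in Gbp10. Exons of Gm43302 cover 46.3% of the exonic bases of Gbp10 and 29.0% of those of Gbp6, yet Gm43302 itself was given at most 3 counts in any library. The values of Gbp6 and Gbp10 are therefore uncertain, and whether reads common to both were divided or dropped is not given in the sources used here. The other members shared less, 18.1% for Gbp8, 12.7% for Gbp7 (mainly with the pseudogene Gm43802), 8.05% for Gbp9, 7.78% for Gbp4, 3.75% for Gbp3, 2.03% for Gbp2 and 1.44% for Gbp5. Between the chromosome 3 genes, Gbp3 and Gbp7 were the pair with the most stretches in common, 126.

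Sums over each group do not depend on how reads were divided within it. Reads that fit several genes and were dropped would still be missing from the sums, which could not be checked. The chromosome 5 sum and its share of the Gbp counts may therefore be too low. The chromosome 3 genes summed to 125, 239 and 270 CPM in control and 687, 758 and 1177 CPM in KO, a log2 fold change of 2.05 (SE 0.308). The chromosome 5 genes summed to 18.7, 20.5 and 42.6 CPM in control and 346, 333 and 540.5 CPM in KO (log2 fold change 3.89, SE 0.354). In both sums the KO libraries lay above the control libraries. The chromosome 5 genes made up 7.88% to 13.6% of the Gbp counts in the control libraries and 30.5% to 33.5% in the KO libraries, so their share was higher in each KO library. Gbp2 alone took 62.8% ± 4.09 of the Gbp counts in control and 41.7% ± 2.13 in KO, and Gbp5 took 19.4% ± 1.14 and 9.53% ± 1.54 (SD, n = 3). The share of Gbp7 was 3.57% ± 0.696 in control and 12.8% ± 1.65 in KO.

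**Figure D2:**
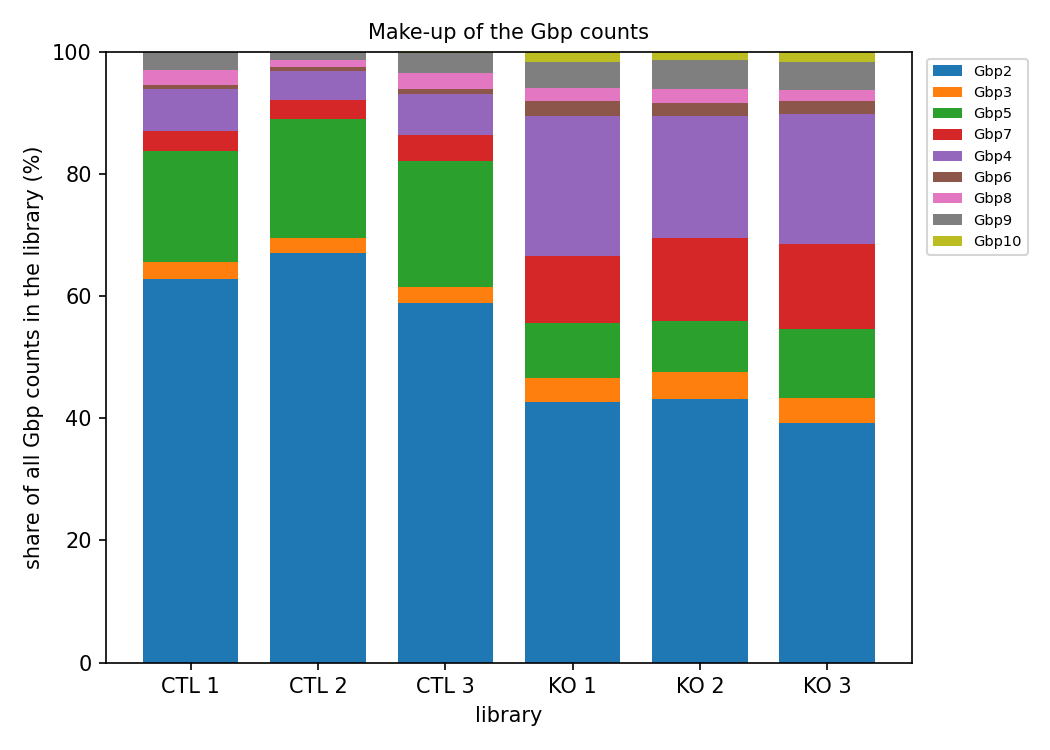
Share of each Gbp gene in all Gbp counts of a library, in percent, with 1 stacked bar for each of the 6 libraries. Gbp2 takes 58.8% to 67.0% of each control bar and 39.2% to 43.1% of each KO bar, while Gbp4 and Gbp7 widen from control to KO.

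Levels between genes were compared as CPM per kb of annotated exon. In control the order was Gbp2 (59.3 ± 20.5), Gbp5 (7.07 ± 2.90), Gbp3 (1.95 ± 0.714), Gbp4 (1.91 ± 0.768), Gbp7 (1.57 ± 0.818), Gbp8 (1.40 ± 0.810), Gbp9 (1.17 ± 0.727), Gbp6 (0.281 ± 0.134) and Gbp10 (0.104 ± 0.111) (SD, n = 3). Gbp2 and Gbp5 stood clear of each other and of the rest, the ranges of the next 5 genes overlapped, and so did those of Gbp6 and Gbp10. In KO the order was Gbp2 (210.0 ± 50.3), Gbp4 (36.5 ± 10.6), Gbp7 (29.6 ± 11.6), Gbp5 (18.9 ± 8.85), Gbp3 (16.4 ± 4.81), Gbp9 (11.2 ± 3.44), Gbp8 (7.96 ± 1.42), Gbp10 (5.22 ± 2.01) and Gbp6 (4.63 ± 1.23). Gbp2 stayed clear of the others there, and each later gene overlapped the next in its range. Gbp5 thus moved from the second to the fourth place and Gbp4 from the fourth to the second.

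**Figure D3:**
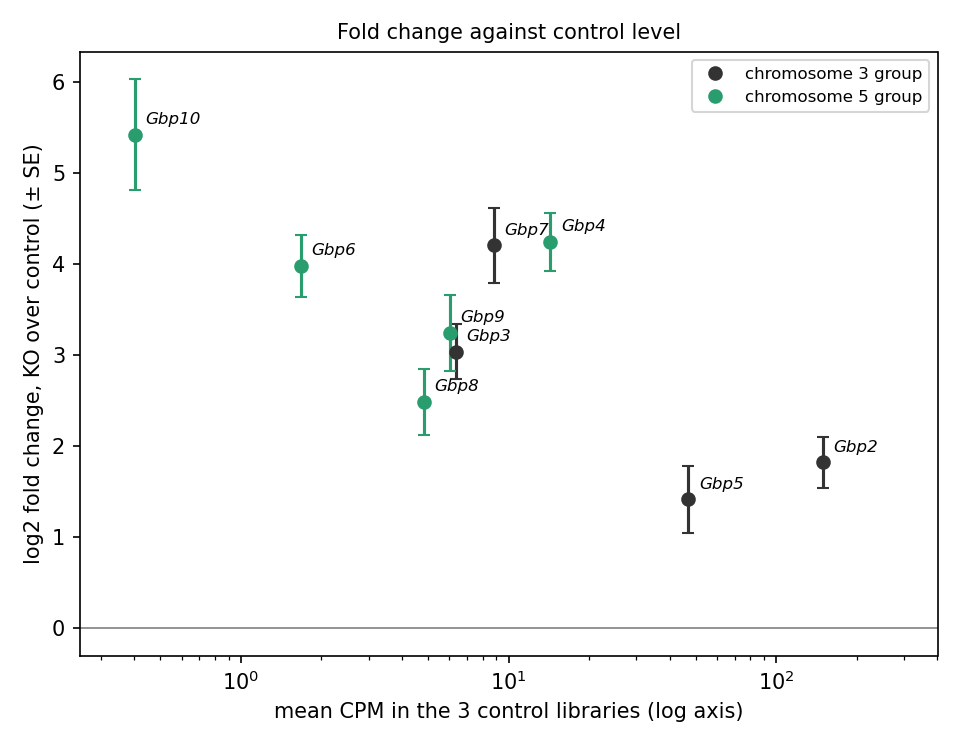
Log2 fold change of KO over control with its SE for each Gbp gene, against its mean CPM in the 3 control libraries on a log axis. Gbp2 and Gbp5 lie at the right with values under 2, and Gbp10 at the left with 5.42; the control level enters both axes, so these are not independent measures.

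The Gbp genes varied more between replicates than most genes did. In control the highest library stood 2.04 to 3.05 times above the lowest for the 8 members without a 0, against a median of 1.38 over all tested genes without a 0. In KO the same ratio was 1.41 to 2.12 for the 9 members, against a median of 1.29. Replicate 3 was the highest library for 9 of 9 members in control and for 9 of 9 in KO, where 41.4% and 34.2% of all tested genes had it highest. Within each replicate number KO exceeded control for every member with a control count, with log2 ratios of 1.82 (Gbp5) to 4.67 (Gbp6) for number 1, 0.85 (Gbp5) to 5.35 (Gbp10) for number 2 and 1.59 (Gbp5) to 5.08 (Gbp10) for number 3. With replicates numbered 1 and 2 alone, the summed log2 fold changes were 1.98 (SE 0.258) for chromosome 3 and 4.11 (SE 0.154) for chromosome 5.

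Genes of the interferon gamma pathway were tested in the same comparison. This list and the other lists by function below were chosen with earlier results of these data known. Their shares of called genes are therefore a description. Of 17 genes, 9 rose, 3 fell and 5 were not called (edgeR, adjusted p under 0.05), with a median log2 fold change of 0.66. Over all tested genes 23.2% were called higher and 22.9% lower. Ifng, the ligand, was barely detected, with 0.0608, 0.413 and 0.380 CPM in control and 0.683, 0.214 and 0.661 CPM in KO (adjusted p = 0.422). Both receptor chains rose. Ifngr1, the ligand-binding chain, held 45.9 ± 7.75 CPM in control and 165 ± 51.7 in KO (mean ± SD, n = 3), a log2 change of 1.84 with SE 0.235 (adjusted p = 0.000616 by edgeR). Ifngr2, its signalling partner, held 70.4 ± 6.02 and 159 ± 25.6 CPM, a log2 change of 1.18 with SE 0.144 (adjusted p = 0.000524 by edgeR). The KO libraries of both lay above all control libraries.

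The receptor kinases moved in opposite directions. Jak1 rose, with 323 ± 15.1 CPM in control and 507 ± 29.1 in KO (mean ± SD, n = 3) and a log2 change of 0.65 with SE 0.113 (adjusted p = 0.00228 by edgeR). Jak2 fell, with 455 ± 50.3 and 335 ± 9.38 CPM and a log2 change of −0.44 with SE 0.122 (adjusted p = 0.0168 by edgeR), a call that 3 of the 6 fits leaving out 1 library lost, those without control replicate 1 and without KO replicates 2 and 3 (adjusted p = 0.0509, 0.0746 and 0.0614).

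Irf1, a transcription factor that interferon gamma induces and that binds ISRE elements, showed the largest change of the transcription factor genes above 5 CPM in this list. It held 27.4, 36.8 and 39.3 CPM in control replicates 1, 2 and 3 and 184, 167 and 239 CPM in KO replicates 1, 2 and 3 (log2 fold change 2.51, SE 0.185, edgeR adjusted p = 7.86e-05). Replicate 3 was again the highest library in both groups. Irf8 held 86.3 ± 31.4 CPM in control and 118 ± 38.9 in KO (mean ± SD, n = 3; adjusted p = 0.243 by edgeR). Of the alternatives run, only the one with the replicate block called it (adjusted p = 0.0364).

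Some genes of this list are named after their values were seen. Among those that fell, Ptpn2 (log2 fold change −0.92) and Ptpn6 (−0.61) encode phosphatases that restrain JAK signalling, and the feedback inhibitor Socs1 was not called (0.045, edgeR adjusted p = 0.734). Pias1, another inhibitor gene of the list, was not called either (0.32, edgeR adjusted p = 0.0521), though its KO libraries lay above all control libraries. Batf2 had 0 counts in each control library and 31, 44 and 49 in KO, at least 15.3-fold higher than the floor of 3 counts per control library. Ciita was low, with 0.195 ± 0.166 CPM in control and 1.90 ± 0.814 in KO (mean ± SD, n = 3). Its log2 fold change of 3.10 was larger than that of Irf1 (edgeR adjusted p = 0.00339). Nlrc5 (1.30) and Nmi (1.12) were called higher too.

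**Figure D4:**
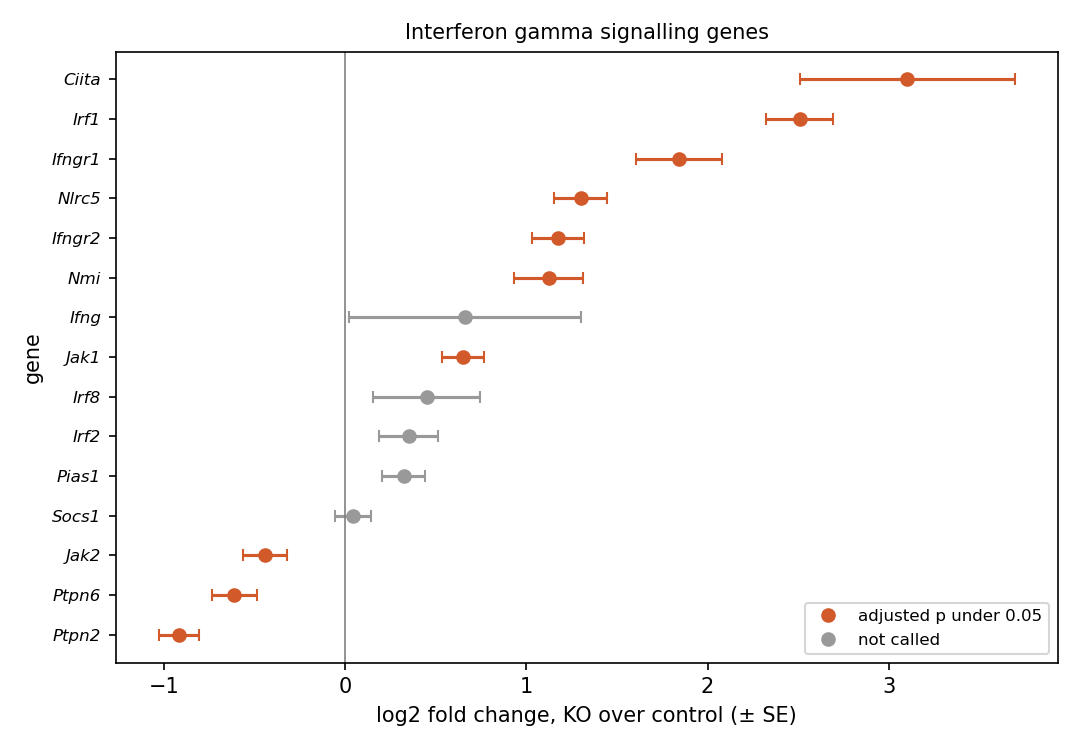
Log2 fold change of KO over control with its SE for 15 of the 17 interferon gamma signalling genes, in orange where the edgeR adjusted p was under 0.05 and in grey otherwise. Irf1 lies at 2.51, both receptor chains lie above 1, and Ptpn2, Ptpn6 and Jak2 lie below 0; Batf2, at 0 counts in control, is not drawn.

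Genes of the type I interferon system and of nucleic acid sensing, which also feed the ISRE, were tested next. Of 15 tested genes 11 were called higher and 1 lower, or 73.3% and 6.67% beside 23.2% and 22.9% of all tested genes, with a median log2 fold change of 1.14. Ifnb1 and Ifna4 were too low to test, under 0.1 CPM on average in both groups. Isg15, a ubiquitin-like modifier, held 5.53, 4.60 and 17.2 CPM in control and 31.4, 28.4 and 81.5 CPM in KO (log2 fold change 2.34, SE 0.568, edgeR adjusted p = 0.00981). Leaving out replicate 3 of the control group gave 3.17, and leaving out that of the KO group gave 1.70. Irf7 rose by 2.01 on the log2 scale (edgeR adjusted p = 0.00567), and by 2.72 without control replicate 3. Usp18, which removes ISG15, rose by 1.86 (edgeR adjusted p = 0.00167) and Ifih1, a sensor of double-stranded RNA, by 1.40 (0.0107) on the same scale. The gene that fell, named after its value was seen, was Mb21d1, which encodes the DNA sensor cGAS (−1.17).

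Prenyl groups anchor some GBP proteins in membranes, and the conjugation system of ATG8 proteins guides them to parasite vacuoles. Of 16 such genes 8 were called higher (23.2% of all tested genes were) and 1 lower (22.9%), with a median log2 fold change of 0.38. Without control replicate 3 the count of lower calls was 3. Fntb, the catalytic subunit of the farnesyltransferase, fell, with 25.4 ± 4.80 CPM in control and 7.50 ± 1.41 in KO (mean ± SD, n = 3) and a log2 change of −1.75 with SE 0.205 (adjusted p = 0.00044 by edgeR). Other prenylation genes, named after their values were seen, did not fall with it. Pggt1b (log2 fold change 0.52, edgeR adjusted p = 0.0064) and Icmt (0.82, 0.000735) rose, and Fnta, Rce1 and Zmpste24 were not called. The ATG8 genes named by the rule rose: Map1lc3b (log2 fold change 1.91, edgeR adjusted p = 0.000132), Gabarap (1.19, 0.000593) and Gabarapl2 (0.82, 0.00263). Of the genes that conjugate them, Atg12 was called higher (0.71, edgeR adjusted p = 0.0204), and Atg3, Atg5, Atg7 and Atg16l1 were not called.

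Inflammasome genes, downstream partners of the GBP proteins, gave 3 calls higher and 1 lower among 10 tested, where 23.2% and 22.9% of all tested genes were called, so the share called higher lay near that of all genes. Casp1, the protease that inflammasomes activate, rose, with 6.62 ± 1.81 CPM in control and 33.0 ± 5.17 in KO (mean ± SD, n = 3) and a log2 change of 2.30 with SE 0.219 (adjusted p = 0.000202 by edgeR). Pycard, which encodes the adaptor ASC, fell, with 47.5 ± 3.54 and 31.5 ± 2.12 CPM and a log2 change of −0.59 (adjusted p = 0.00464 by edgeR). The other 2 calls were Il18 and Nlrp1b, named after their values were seen, with at most 4 and 3 counts in any control library. The count of calls in this list rose from 4 to 7 with the replicate block, and also without control replicate 3 or with replicates numbered 1 and 2 alone.

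Genes on either side of the clusters, out to 4040 kb, were called about as often as genes at large. Among the 10 nearest protein-coding genes on each side of both clusters, 25 of 40 were tested, 6 were called higher and 7 lower (24.0% and 28.0%, beside 23.2% and 22.9% of all tested genes), and the median log2 fold change was 0.043. Without control replicate 1 the count of higher calls was 3. On chromosome 3, Pdlim5, 98.3 kb before the cluster, was called higher (1.20, edgeR adjusted p = 0.042), but not by DESeq2 (adjusted p = 0.111) or in 3 of the 6 fits without 1 library, those without control replicate 1 and KO replicates 1 and 2 (0.0994, 0.111 and 0.101). Bmpr1b, the next gene, had 0 counts throughout. After the cluster, Kyat3 fell (−0.97, edgeR adjusted p = 0.0147, lost without KO replicate 2 at 0.0628), and Gtf2b, which encodes the general transcription factor TFIIB, rose, with 55.3 ± 6.60 CPM in control and 175 ± 23.2 in KO (mean ± SD, n = 3) and a log2 change of 1.66 with SE 0.142 (adjusted p = 0.000136 by edgeR). On chromosome 5, none of the 4 nearest genes was called by edgeR: Abcg3 (−0.29, adjusted p = 0.44), Zfp951 (0.43, 0.156), Lrrc8b (0.29, 0.121) and Lrrc8c (0.30, 0.0624). The replicate block called Lrrc8c (adjusted p = 0.0481), as did leaving out control replicate 2 (0.0447), and scaling by library size alone called both Lrrc8c (0.0223) and Lrrc8b (0.0492). Further out, Tgfbr3, 1760 kb after the cluster on chromosome 5, fell (−1.67, edgeR adjusted p = 0.000348). Tspan5, 3590 kb before the cluster on chromosome 3, fell too, with 72.8 ± 9.56 CPM in control and 36.4 ± 2.34 in KO (mean ± SD, n = 3, adjusted p = 0.000666 by edgeR).

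The genes most like the mean Gbp profile were found by Euclidean distance between centred log2 CPM values over the 6 libraries. The nearest 5 outside the family were Trim30b (0.41), Gm29340 (0.45), Prdm1 (0.51), Amotl2 (0.52) and Kctd12 (0.55). By the same measure Gbp3 lay at 0.58 and Gbp10 at 3.68 from their own mean profile. Prdm1, which encodes the transcription factor BLIMP1, held 0.365, 0.619 and 1.05 CPM in control and 7.21, 6.44 and 15.3 CPM in KO. Kctd12 held 2.43, 2.93 and 7.58 CPM in control and 28.9, 41.5 and 52.6 CPM in KO. Both had replicate 3 as the highest library of each group, as the Gbp genes had. They were picked by likeness over these same 6 libraries, so nothing is read from this pattern.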

How the data were processed

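The deposited values are whole-number counts per gene symbol for 6 libraries. Per the submitters' processing notes, the authors used STAR, featureCounts and DESeq2 with the build mm10. Versions, annotation, strand setting and the handling of reads that fit several genes are not given in the sources used here. Groups and replicate numbers came from the titles, and columns were matched by description. There were 0 columns without a sample and 0 rows without a gene name.

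KO was compared with control by edgeR 4.0.16 (R 4.3.3, quasi-likelihood test) on 14268 genes kept by filterByExpr, holding 99.9% of counts, with TMM factors, no covariate and Benjamini-Hochberg adjustment over all tested genes. The standard error is the absolute log2 fold change over the square root of F. The script was tested on simulated data. The members and lists were chosen with earlier results of these data known. Named genes were all members, Rtf1, 8 interferon gamma signalling genes (1 of these is counted in its list but not reported here), the nearest 2 neighbours on each side, the 5 most similar genes, and up to 4 called genes per other list with the largest change, a mean of at least 5 CPM and groups that do not overlap. A gene with at most 3 counts in each library of a group was at the floor, and counting limits cover counting error only.

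Coordinates, exon lengths and shared 50-base stretches came from GENCODE M21 (GRCm38, the same assembly as mm10), and promoters from RefSeq on GRCm38.p6. No promoter entry was used for Gbp4, Gbp6, Gbp8, Gbp9, Gbp10 and Gbp11. Whether equal replicate numbers mark paired libraries is not given in the sources used here. Deviations from group means correlated at 0.27, 0.13 and 0.379 for numbers 1, 2 and 3. Control replicate 2 correlated with KO replicate 1 at 0.204, above its 0.13 with KO replicate 2, so these values do not settle it. The main fit treated the libraries as unpaired, and pairing by number entered only as the replicate block. Alternatives were DESeq2 1.42.0, other scalings and filters, the replicate block, and fits leaving out libraries.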

Additional observations from a re-analysis of the deposited data

How the results depend on the processing

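Each of the 9 Gbp log2 fold changes was above 0 in all 14 alternatives (126 values), none moved by more than the SD between replicates, and the count of 9 called higher stayed at 9 in each. Leaving out 1 library at a time gave 1.71 to 2.19 for the summed chromosome 3 genes and 3.63 to 4.31 for the summed chromosome 5 genes. With the replicate block the sums gave 2.08 (SE 0.156) and 3.96 (SE 0.14), with smaller SEs than in the main fit. The number of genes called, 6574, ranged from 4460 without KO replicate 2 to 7628 with the replicate block. The count of called inflammasome genes moved from 4 to 7 with the replicate block and with libraries numbered 1 and 2 only, and ranged from 3 to 7 when 1 library was left out. The cause was not tested. The block changed no other call among the named genes except those of Irf8 and Lrrc8c given above. No result reversed. Counts limit Gbp10 in control (0 to 36 per library) and Ifng, and shared sequence limits Gbp6 and Gbp10 at any depth.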

Other observations

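Other GTPases related to dynamin were counted beside the Gbp genes. In KO 13 of 19 rose and 2 fell (edgeR, adjusted p under 0.05), with a median log2 fold change of 1.74. Over all genes tested the shares called were 23.2% and 22.9%. The list mixes interferon-induced GTPases with dynamin, atlastin and mitochondrial membrane genes, so its count does not describe dynamin-like GTPases as a class. Among the latter genes, named after their values were seen, Atl1 (1.26), Dnm2 (0.36), Dnm3 (1.74) and Mfn2 (0.38) were called higher. Dnm1, Dnm1l, Opa1 and Mfn1 were not called. The immunity-related GTPases, which work with GBP proteins on parasite vacuoles, held the largest changes: Iigp1 held 2.16 ± 0.832 CPM in control and 121 ± 35.8 in KO (mean ± SD, n = 3), a log2 change of 5.76 with SE 0.328 (adjusted p = 3.86e-05 by edgeR), and Irgm2 held 26.2 ± 8.06 and 240.2 ± 44.4 CPM, a log2 change of 3.19 with SE 0.241 (adjusted p = 8.68e-05 by edgeR). Tgtp2 (4.02) and Tgtp1 (3.61) rose too, and as near-identical copies their single values are uncertain. The atlastin genes Atl2 (−0.51) and Atl3 (−0.46), whose proteins fuse membranes of the endoplasmic reticulum, were the 2 that fell and are named after their values were seen. The count of lower calls was 1 without KO replicate 3 and with replicates numbered 1 and 2 alone. Mx2 and Gm12250 were not analysed here.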
